A study of Mus musculus with 6 samples.

Results

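The 10 hypoxia response genes Hif1a, Epas1, Egln1, Egln3, Ndrg1, Car9, Bnip3, P4ha1, P4ha2 and Adm were taken by symbol from the 22623 gene IDs of the series, and all 10 were present in each of the 6 libraries. The series measured RNA in single nuclei from whole tumors that grew from TC1 cells, a mouse lung cancer line, injected under the skin of the flank. There were 3 libraries from MCT2 CO tumors and 3 from MCT2 KO tumors, and the labels do not say whether each came from a separate animal. All mice, controls included, carried MCT2 loxP/loxP alleles and an mCre transgene whose product acts after tamoxifen, and they entered the experiment at 8 weeks of age. CO mice received vehicle and KO mice received tamoxifen for 5 days, the TC1 cells were injected 2 days later, and tumors were collected after 24 days. The deletion was made in the host mice and not in the injected TC1 cells, so a tumor held cells with and without the engineered allele. MCT2 is the monocarboxylate transporter encoded by Slc16a7, which carries pyruvate and lactate across membranes.

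Cells sense oxygen through prolyl hydroxylases that mark the alpha subunits of hypoxia-inducible factor (HIF) for destruction while oxygen is at hand. When oxygen falls, the alpha subunits Hif1a and Epas1 (HIF-2 alpha) escape this marking, pair with Arnt and switch on genes for glucose use, blood vessel growth, pH control and matrix assembly. Because HIF-1 alpha is controlled mainly as a protein, the RNA of its targets is the usual readout of the response in a tumor. The oxygen sensors Egln1 and Egln3 are themselves HIF targets.

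Promoter sequences from RefSeq were matched to 8 of the 10 genes, and Epas1 and Ndrg1 had no entry in that table. The 5 sequences below belong to Egln1, P4ha1, P4ha2, Bnip3 and Car9. The first 4 genes were each in at least 1 pair that shared tumor nuclei more often than expected. Hif1a, Egln3 and Adm were also in such pairs, but their matched sequences are not shown. Car9 was lower in tumor nuclei than in macrophage nuclei. Each of the 5 sequences shows the 250 bases before the annotated start, read 5′ to 3′ on the strand of the gene in build GRCm38.p6. The windows are chr8:124949255-124949504 on the minus strand for Egln1, chr10:59323046-59323295 on the plus strand for P4ha1, chr11:54100674-54100923 on the plus strand for P4ha2, chr7:138909507-138909756 on the minus strand for Bnip3 and chr4:43506776-43507025 on the plus strand for Car9. Capitals mark ACGTG and GCGTG, the core letters of the HIF response element, on either strand, so that CACGT and CACGC are also marked.
Egln1: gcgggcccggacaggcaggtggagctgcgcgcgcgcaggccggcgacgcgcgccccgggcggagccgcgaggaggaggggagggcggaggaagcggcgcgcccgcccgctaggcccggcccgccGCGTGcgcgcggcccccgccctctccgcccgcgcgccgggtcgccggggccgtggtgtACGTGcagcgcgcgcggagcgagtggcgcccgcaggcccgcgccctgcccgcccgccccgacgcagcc
P4ha1: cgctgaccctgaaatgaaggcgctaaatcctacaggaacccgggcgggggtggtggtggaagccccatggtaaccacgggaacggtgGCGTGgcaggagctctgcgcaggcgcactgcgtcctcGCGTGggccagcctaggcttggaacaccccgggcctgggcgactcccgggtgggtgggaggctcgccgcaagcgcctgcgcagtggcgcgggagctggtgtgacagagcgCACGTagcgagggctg
P4ha2: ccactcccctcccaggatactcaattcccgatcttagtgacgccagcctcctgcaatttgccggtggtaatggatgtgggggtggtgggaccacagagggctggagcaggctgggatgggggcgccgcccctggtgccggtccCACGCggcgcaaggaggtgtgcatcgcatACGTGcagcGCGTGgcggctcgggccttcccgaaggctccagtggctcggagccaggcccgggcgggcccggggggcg
Bnip3: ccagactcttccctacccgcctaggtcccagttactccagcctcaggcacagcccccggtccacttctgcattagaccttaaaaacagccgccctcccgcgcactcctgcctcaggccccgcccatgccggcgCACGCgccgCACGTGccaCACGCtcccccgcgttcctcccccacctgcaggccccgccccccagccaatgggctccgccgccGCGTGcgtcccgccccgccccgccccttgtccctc
Car9: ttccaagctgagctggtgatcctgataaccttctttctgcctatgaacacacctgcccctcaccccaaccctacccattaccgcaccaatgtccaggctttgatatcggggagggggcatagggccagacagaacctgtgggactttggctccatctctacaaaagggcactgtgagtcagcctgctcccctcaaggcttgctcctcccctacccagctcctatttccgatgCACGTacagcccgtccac

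In the full 300-base windows, which also take in 50 bases after the start, ACGTG lay in 7 of the 8 matched promoters and GCGTG in 5 of 8, and each of the 8 held one or the other. Over all 32851 promoters of the same length, 19.6% held ACGTG, 32.4% held GCGTG and 43.8% held one or the other. Bnip3 held 5 matches in 4 marked stretches, since its CACGTG counts once on each strand. P4ha2 held 4 matches, of which 1 lay after the start, and Car9 held 1, at 18 bases before the start. The promoter of Adm held GCGTG only. The ACGTG letters overlap the E-box CACGTG, which was present in Hif1a and Bnip3. The members' windows were 54.7% to 86% G and C against a mean of 53.8% over all promoters, and the shares above were not adjusted for base composition. A match describes the letters and not the binding of a factor.

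Each library held between 13252572 and 22057084 unique molecular identifiers (UMIs, each standing for 1 captured RNA molecule), and 17514 nuclei were kept. The median depth of a nucleus ranged from 1094 to 4838 UMIs between libraries, and 19 to 25 barcodes were shared by any 2 libraries. Slc16a7, the deleted gene, stood at 8.30, 11.7 and 21.1 counts per 1000000 UMIs (CPM) over all nuclei of CO replicates 1, 2 and 3 and at 15.5, 7.07 and 31.4 CPM in KO replicates 1, 2 and 3, so the labels could not be checked by a loss of its RNA. Macrophage-like nuclei held most of it in each library but KO replicate 2, where they held 50 of 108 UMIs. Its level there was 93.0, 94.3 and 170.1 CPM for CO against 119, 139 and 155 CPM for KO. A count at the 3′ end of the transcript need not fall when an inner exon is cut out. The labels give lung as the tissue, but the lung epithelial genes Sftpc, Sftpa1, Scgb1a1 and Nkx2-1 had 0 UMIs over all kept nuclei.

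Nuclei were sorted into classes by the share of their UMIs that fell on fixed marker genes. Of the kept nuclei, 8788 were tumor-like and 5308 macrophage-like, and smaller sets were T/NK-like (490), endothelial-like (102) and fibroblast-like (20), while 2806 had no class. Mecom, Slit2 and Hmga2 led the 17 tumor markers, and Ptprc, Ctss and Adgre1 led the 22 macrophage markers, of which Itgam was at 0. The epithelial genes Epcam and Cdh1 stood at 0.0908 and 0.787 CPM in tumor-like nuclei, and these markers do not tell TC1 cells from mesenchymal cells of the host. Of the nuclei, 640 lay within 20% of the tumor cut and 663 within 20% of the macrophage cut. Tumor-like nuclei had a median of 5267 UMIs and macrophage-like nuclei a median of 1117. The summed tumor markers in macrophage-like nuclei reached 6.33% to 12.6% of their level in tumor-like nuclei, and macrophage markers in tumor-like nuclei reached 4.39% to 6.55% of their level in macrophage-like nuclei. Some markers were carried by the other class too, such as Mertk at 265 CPM in tumor-like nuclei and Rnf150 at 189 CPM in macrophage-like against 34.9 CPM in tumor-like nuclei, and the class cuts themselves cap these sums. They are therefore no measure of RNA from the other class, whose part in the levels of the members was not tested.

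The HIF alpha subunits were compared first. Values are given in CPM of the nuclei summed per library, in the order of replicates 1, 2 and 3. They rank libraries and classes for 1 gene and do not rank genes against each other. Positions are those of the gene in GENCODE on build GRCm38. In tumor-like nuclei, Hif1a stood at 105, 113 and 149 CPM in CO and at 114, 148 and 133 CPM in KO. Its macrophage-like values were 124, 109 and 126 CPM for CO, with 127, 149.7 and 142 CPM for KO. The classes overlapped over their whole range, and Hif1a was higher in tumor-like nuclei in 2 of 6 libraries. Its gene body (chr12:73901375-73947530, plus strand) overlaps an annotated gene on the same strand that the files also list, Gm49321, so part of its reads may have been lost or shared.

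Epas1 (chr17:86753700-86833410, plus strand), which encodes the HIF-2 alpha subunit best known from blood vessel cells, was scarce in both main classes. It stood at 3.75, 7.03 and 11.2 CPM in tumor-like nuclei of CO and at 5.50, 5.48 and 7.90 CPM in those of KO. In macrophage-like nuclei it stood at 3.835, 4.285 and 9.02 CPM in CO and at 8.85, 2.77 and 5.95 CPM in KO. The spread between libraries covered both classes. The 102 endothelial-like nuclei held 91 UMIs of Epas1, a level of 367 CPM with an exact 95% Poisson interval of 296 to 451 CPM, which covers counting error only. By library it was 424, 178 and 315 CPM there in CO and 304, 583 and 386 CPM in KO, so that each library lay above every tumor-like and macrophage-like value.

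The oxygen sensors came next. Egln1 (PHD2; chr8:124908587-124949324, minus strand), the main HIF prolyl hydroxylase, stood at 135, 109 and 92.5 CPM in tumor-like nuclei of CO and at 109, 78.4 and 111 CPM in those of KO. Its macrophage-like values were 90.1, 75.7 and 74.7 CPM in CO and 91.25, 63.8 and 66.1 CPM in KO, below the tumor-like value of the same library in all 6. Across libraries the classes overlapped, since KO replicate 2 was low in tumor-like nuclei and CO replicate 1 and KO replicate 1 were high in macrophage-like nuclei. Egln3 (PHD3; chr12:54178981-54203860, minus strand), a hydroxylase that is strongly induced by HIF, stood at 10.3, 8.26 and 4.73 CPM in tumor-like nuclei of CO and at 7.44, 13.95 and 13.25 CPM in those of KO. In macrophage-like nuclei it stood at 5.75, 3.57 and 2.58 CPM in CO and at 4.98, 2.77 and 3.30 CPM in KO. Only the tumor-like value of CO replicate 3 fell within the macrophage-like range, which rested on 28 UMIs in all.

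P4ha1 (chr10:59323296-59373304, plus strand) and P4ha2 (chr11:54100095-54131665, plus strand) encode alpha subunits of collagen prolyl 4-hydroxylase, which hydroxylates collagen in the endoplasmic reticulum so that its triple helix is stable. P4ha1 stood at 360.5, 357 and 224 CPM in tumor-like nuclei of CO and at 299, 299 and 339 CPM in those of KO. Its macrophage-like values were 342, 298 and 282 CPM for CO and 309, 249.6 and 285.5 CPM in KO. The classes overlapped, with CO replicate 3 the lowest tumor-like library. P4ha2 stood at 77.8, 53.2 and 25.9 CPM in tumor-like nuclei of CO and at 62.8, 33.4 and 34.9 CPM in those of KO. In macrophage-like nuclei P4ha2 stood at 28.8, 22.1 and 6.44 CPM in CO and at 40.4, 13.9 and 27.75 CPM in KO. Each library was higher in its tumor-like nuclei, although the range of the libraries was wide in both classes.

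Bnip3 (chr7:138890836-138909519, minus strand), a mitochondrial outer membrane protein that takes part in mitophagy, stood at 43.7, 25.5 and 21.0 CPM in tumor-like nuclei of CO and at 33.6, 64.1 and 59.7 CPM in those of KO. In macrophage-like nuclei it stood at 31.6, 16.4 and 18.04 CPM in CO and at 36.5, 58.2 and 37.7 CPM in KO. KO replicates 2 and 3 were the highest libraries in both classes, and KO replicate 1 lay below CO replicate 1 in tumor-like nuclei only. Ndrg1 (chr15:66929318-66969640, minus strand), a cytoplasmic protein whose gene is induced by hypoxia and by stress, stood at 57.98, 48.75 and 56.0 CPM in tumor-like nuclei of CO and at 49.45, 55.5 and 53.9 CPM in those of KO. Its macrophage-like values were 24.9, 17.9 and 18.04 CPM in CO and 27.1, 19.4 and 37.0 CPM in KO libraries. The tumor-like values lay close together and each was above every macrophage-like value.

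Car9 (chr4:43506966-43513729, plus strand) encodes carbonic anhydrase IX, a cell-surface enzyme that helps to control pH and is widely used as a marker of hypoxia. It stood at 4.32, 3.16 and 1.105 CPM in tumor-like nuclei of CO and at 1.86, 1.94 and 3.40 CPM in those of KO. In macrophage-like nuclei it stood at 15.3, 7.86 and 10.3 CPM in CO and at 12.7, 8.32 and 11.2 CPM in KO. Each macrophage-like value was above each tumor-like value, but the macrophage-like values rested on 78 UMIs in all. The value of KO replicate 2 came from 3 UMIs, and that of CO replicate 3 from 8 UMIs in 5 nuclei. Adm (chr7:110627661-110629820, plus strand) encodes adrenomedullin, a secreted peptide that widens vessels, and stood at 17.9, 6.94 and 10.7 CPM in tumor-like nuclei of CO and at 13.2, 4.58 and 4.62 CPM in those of KO. Its macrophage-like values were 9.59, 4.285 and 5.15 CPM in CO and 7.19, 0 and 1.32 CPM in KO, on 35 UMIs in all. The 0 in KO replicate 2 came from 233 nuclei and allows a level of up to 8.32 CPM (3 UMIs).

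**Figure D1:**
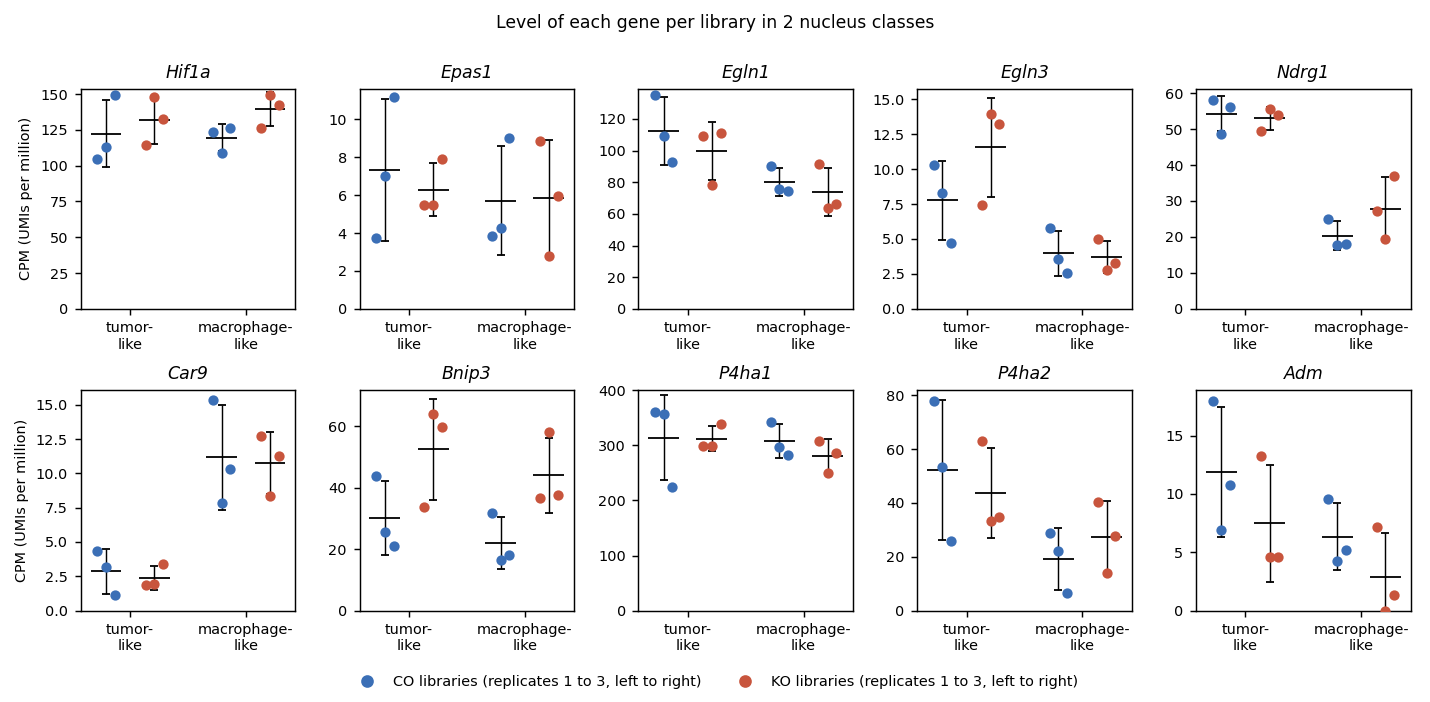
Level of each of the 10 genes in CPM (vertical axis, from 0, with its own scale in each panel) in tumor-like and macrophage-like nuclei of the 3 CO and 3 KO libraries; points are libraries and bars are means ± SD (n = 3). Car9 is higher in the macrophage-like nuclei of all 6 libraries, Egln3, Ndrg1, P4ha2 and Adm are lower there, and the CO and KO points overlap in every tumor-like panel.

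Whether the response genes differ between tumor and macrophage nuclei was tested within libraries, since both classes of a library come from 1 tissue sample. A call needed a fold change of 0.58 or more on the log2 scale, in either direction, and an adjusted p of at most 0.05 (edgeR's quasi-likelihood test with Benjamini-Hochberg adjustment over 12899 genes). Of all genes tested, 53.3% were called, 27.1% as higher and 26.3% as lower in tumor-like nuclei. Of the 10 members, 4 were called higher and 1 lower, which is a share of called genes near that background.

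Egln3 was 1.15 log2 units higher in tumor-like nuclei (SE 0.27, edgeR adjusted p = 0.00151), with means of 9.65 ± 3.55 and 3.83 ± 1.27 CPM (SD, n = 6 libraries). Ndrg1 was 1.05 log2 units higher (SE 0.15, edgeR adjusted p = 2.1e-05), with means of 53.6 ± 3.73 and 24.1 ± 7.40 CPM. For Adm the difference was 0.99 (SE 0.25, edgeR adjusted p = 0.00284) and for P4ha2 it was 0.95 (SE 0.17, edgeR adjusted p = 0.000178). With a stricter filter on nuclei, Adm was no longer called (0.85, edgeR adjusted p = 0.0599). These 4 genes were higher in the tumor-like nuclei of 6 of 6 libraries. Car9 went the other way, with a log2 difference of -2.10 (SE 0.29, edgeR adjusted p = 1.2e-05) and means of 2.63 ± 1.195 CPM in tumor-like and 10.96 ± 2.81 CPM in macrophage-like nuclei. It was higher in the macrophage-like nuclei of 6 of 6 libraries, and its mean there was 4.16 times that of tumor-like nuclei.

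Both hydroxylase Egln1 and the mitophagy gene Bnip3 passed the p threshold without reaching the fold. The log2 difference of Egln1 was 0.43 (SE 0.10, edgeR adjusted p = 0.000941, higher in 6 of 6 libraries) and that of Bnip3 was 0.30 (SE 0.13, edgeR adjusted p = 0.0488, higher in 5 of 6). Hif1a, Epas1 and P4ha1 missed both thresholds, at -0.08 (SE 0.09), 0.09 (SE 0.27) and 0.04 (SE 0.10). The means of P4ha1 were 313 ± 51.25 and 294 ± 30.8 CPM, and those of Hif1a were 127 ± 19.0 and 129.5 ± 14.55 CPM. With stricter marker cuts, Epas1 was called higher in tumor-like nuclei, at a log2 difference of 1.21 (edgeR adjusted p = 0.01695).

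**Figure D2:**
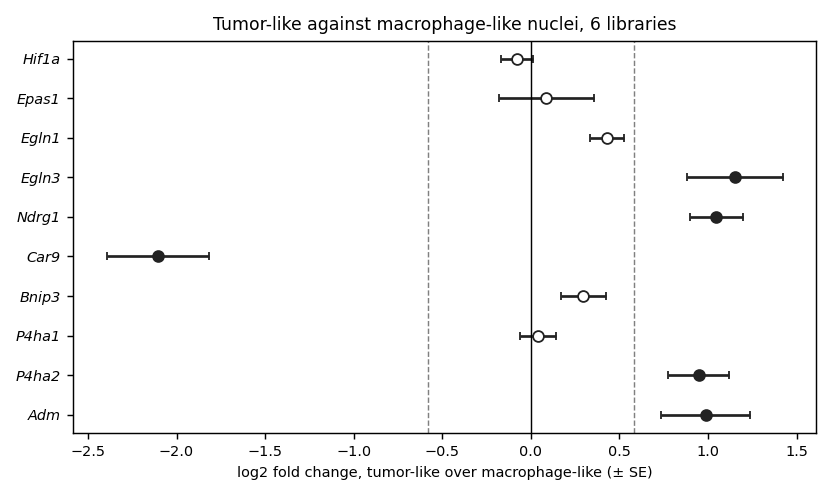
Log2 difference of tumor-like over macrophage-like nuclei for each of the 10 genes, with its standard error, from the fit with the library as a block. Filled points were called, dashed lines mark the fold of 0.58 in either direction, and Car9 is the one called gene on the macrophage side, at -2.10.

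Because the classes differed in depth, shares of nuclei with a UMI were taken after each nucleus was thinned at random to 1000 UMIs. This kept 8294 tumor-like and 3215 macrophage-like nuclei and left out 494 and 2093 shallower ones. The loss of tumor-like nuclei was uneven, at 289 of 1036 in KO replicate 3 and 22 to 71 in each other library. A P4ha1 UMI was then present in 24.8% of tumor-like and 25.7% of macrophage-like nuclei, against 68.2% and 29.7% before thinning. Hif1a was present in 11.35% and 10.8% after thinning, and in 48.0% and 13.6% before. Car9 was present in 0.277% of thinned tumor-like and 1.09% of thinned macrophage-like nuclei, the reverse of the unthinned order of 1.71% and 1.38%. None of the 247 thinned T/NK-like nuclei and none of the 68 thinned endothelial-like nuclei held a Car9 UMI, which allows shares of up to 1.21% and 4.41%. Egln3 and Adm were present in under 1% of the thinned nuclei of either main class.

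The other pathway genes, 72 listed genes of which 67 were tested, were called higher 18 times and lower 18 times in tumor-like nuclei. Over all genes tested, 27.1% were called higher and 26.3% lower. The median log2 difference was 0.02 for the listed genes against 0.01 over all genes. Of the 10 angiogenic and secreted targets tested, 5 were called higher and 2 lower, with a median of 0.64. The collagen lysyl hydroxylase Plod2 was higher by 1.43 (SE 0.16), and Pdgfb, a growth factor that recruits pericytes, had a log2 difference of -5.44 (SE 0.23), with means of 2.12 and 79.5 CPM. Of the 23 glucose and lactate genes tested, 4 were called higher and 6 lower, with a median of -0.33. Within them, the enolase Eno2 was higher by 2.79 (SE 0.25), while Pfkfb3, which makes an activator of glycolysis, stood at 10.0 CPM in tumor-like and 133 CPM in macrophage-like nuclei, and Hk2, a hexokinase, at 22.9 and 121.7 CPM.

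Among the 12 HIF partners and regulators tested, 1 was called higher and 5 lower, beside 27.1% and 26.3% of all genes. The one called higher was Arnt2, a partner subunit, at 59.0 against 7.12 CPM. Of the 22 survival, redox and other targets tested, 8 were called higher and 5 lower, and the adenylate kinase Ak4 was among the higher ones, at 19.2 against 3.88 CPM. Among the lower ones, Ppfia4, a liprin scaffold protein, stood at 1.92 against 73.9 CPM and was lower in 6 of 6 libraries. The inducible nitric oxide synthase Nos2 was called lower on 16 and 15 UMIs, at 0.286 against 1.60 CPM, and was lower in 3 of 6 libraries.

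Co-detection was described for the 8 members other than the HIF subunits, in the 8294 thinned tumor-like nuclei. At 1000 UMIs, 4869 nuclei held none of the 8 genes, 2736 held 1 and 689 held at least 2. At least 2 were found in 11.8%, 7.14% and 4.59% of nuclei for CO and in 7.515%, 7.29% and 10.98% for KO. CO replicate 1 and KO replicate 3 were the highest and CO replicate 3 the lowest, and the groups overlapped. CO libraries averaged 7.83% ± 3.63 and KO libraries 8.59% ± 2.07 (SD, n = 3), a difference within the spread of the libraries.

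If the 8 genes had been detected independently within each library, 11.2%, 7.32% and 4.07% of nuclei would have held at least 2 in CO and 7.31%, 6.60% and 9.215% in KO. The ratio of observed to expected was 1.05, 0.976 and 1.13 for CO and 1.03, 1.104 and 1.19 for KO, a mean of 1.08 ± 0.0770 (SD, n = 6). It lay above 1 in 5 of 6 libraries, and by little. In macrophage-like nuclei the ratio was 1.11, 1.19 and 1.43 for CO and 1.02, 1.42 and 1.196 for KO, on far fewer nuclei with 2 genes. No test was made on nuclei, which are not replicates. When the tumor-like nuclei were not thinned, the mean ratio was 0.864, and 55.5% of nuclei held at least 2 of the genes. At so high a share, genes that go together can also give a ratio below 1. The unthinned value therefore does not show whether the genes go together.

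Single pairs departed further from independence than the set did. Of the 45 pairs of the 10 genes, 18 had an expected count of at least 10 nuclei. Of these, 15 were found together more often than expected, with a median ratio of 1.11. An excess in 6 of 6 libraries was seen for 4 of the 18. Pairs of other genes were not counted, so whether these figures are particular to the members was not tested. Ndrg1 and P4ha2 shared 45 nuclei against 20.5 expected, a ratio of 2.19 with an excess in 6 of 6 libraries. Egln1 and Bnip3 shared 69 against 34.1 expected (2.025, in 5 of 6 libraries). Bnip3, like Ndrg1 and P4ha2, recurred among the pairs in excess. The mitophagy gene was also paired with Ndrg1 in 27 nuclei against 14.2 expected (1.91, in 6 of 6). With P4ha1 it shared 103 against 78.5 (1.31, in 6 of 6) and with P4ha2 25 against 17.0 (1.47, in 3 of 6). With Hif1a it shared 35 nuclei against 35.9 (0.975). P4ha1 and Adm shared 29 nuclei against 18.2 (1.60, in 6 of 6).

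Pairs of the hydroxylases differed. Egln1 and P4ha2 shared 77 nuclei against 51.1 (1.51, in 5 of 6 libraries), while Egln1 and P4ha1 shared 248 against 226 (1.095), and the paralogs P4ha1 and P4ha2 shared 124 against 115 (1.08). The subunit Hif1a was found with its target P4ha1 in 237 nuclei against 230.5 expected (1.03), and with Egln1 in 87 against 99.7 (0.873). Epas1 and P4ha1 gave the lowest ratio, 0.791, on 10 nuclei against 12.7. The other 27 pairs had too few expected nuclei for a ratio to be read.

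**Figure D3:**
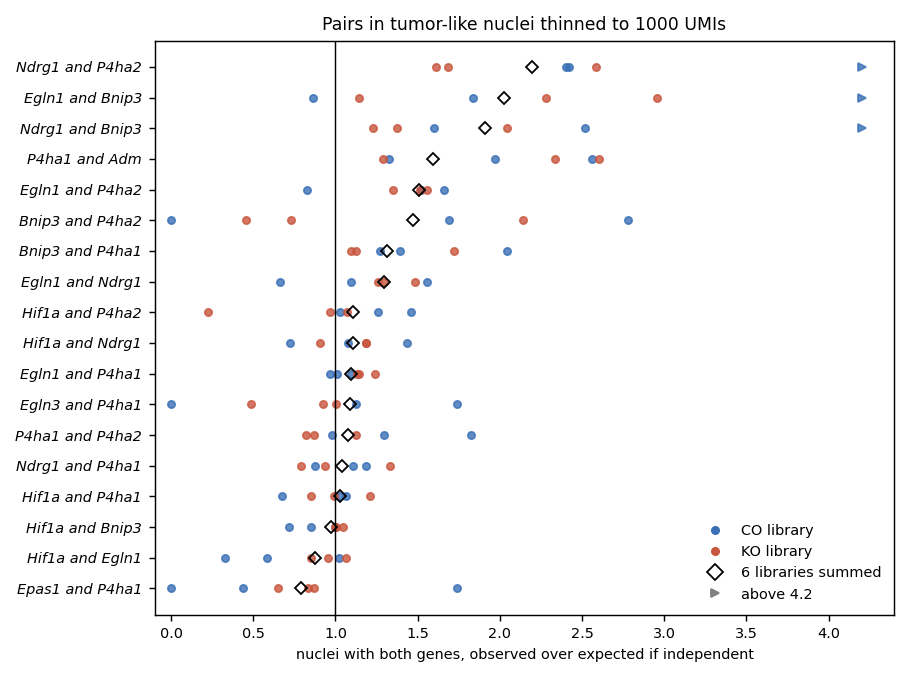
Ratio of observed to expected nuclei for the 18 pairs with at least 10 expected nuclei, in thinned tumor-like nuclei. Small points are the 6 libraries, diamonds are the sums over libraries, arrows mark points beyond the axis, and the line marks a ratio of 1; the summed ratios run from 0.791 to 2.19.

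The rest of the pathway was then set beside the number of members found in a nucleus. In the thinned tumor-like nuclei, 55 listed pathway genes reached a mean of 10 CPM in nuclei with none of the 8 members. Of these, 43 (78.2%) had a higher mean level in nuclei with at least 2 of the 8 members than in nuclei with none. Of all 9523 genes at that level, 46.8% did so. The median ratio was 1.33 for the listed genes and 0.985 for all genes. The excess was present in each of the 6 libraries for 11 of the 55 genes (20%), against 1.51% of all genes. Nuclei with at least 2 members numbered 195, 101 and 35 in CO and 179, 97 and 82 in KO. The level of a gene there in a single library can thus rest on few UMIs. Ankrd37, 1 of the 11, had 37 UMIs in these nuclei over the 6 libraries.

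Pdk1, the kinase that inhibits pyruvate dehydrogenase, stood at 206 ± 51.6 CPM (SD, n = 6 libraries) in nuclei with at least 2 members and at 74.6 ± 25.6 CPM in nuclei with none. Ero1l, an oxidase that forms disulfide bonds in the endoplasmic reticulum, stood at 94.8 ± 29.4 against 42.6 CPM, and Fam162a, a mitochondrial protein, at 322 ± 95.4 against 159.6 CPM. Ankrd37, Gys1, Hk1, Mxi1, Eno1, Ldha, Pgk1 and Gbe1 completed the 11, with ratios from 1.42 to 2.16. The Hif1a transcript was not among them, at 110.2 ± 41.6 CPM against 129 CPM and higher in 2 of 6 libraries, and Rora was lower in all 6.

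Depth and quality were set beside this split. Over all libraries, nuclei with at least 2 members and with none had a median depth of 5475 and 5540 UMIs, a median mitochondrial share of 7.86% and 7.91%, and a mean doublet score of 0.0744 and 0.0757. Single libraries differed more, with 5727 and 5082 UMIs and mitochondrial shares of 6.43% and 4.95% in CO replicate 3, and with 7260 and 8215 UMIs in KO replicate 3. The proliferation genes Top2a and Mki67 had ratios of 1.01 and 0.851.

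**Figure D4:**
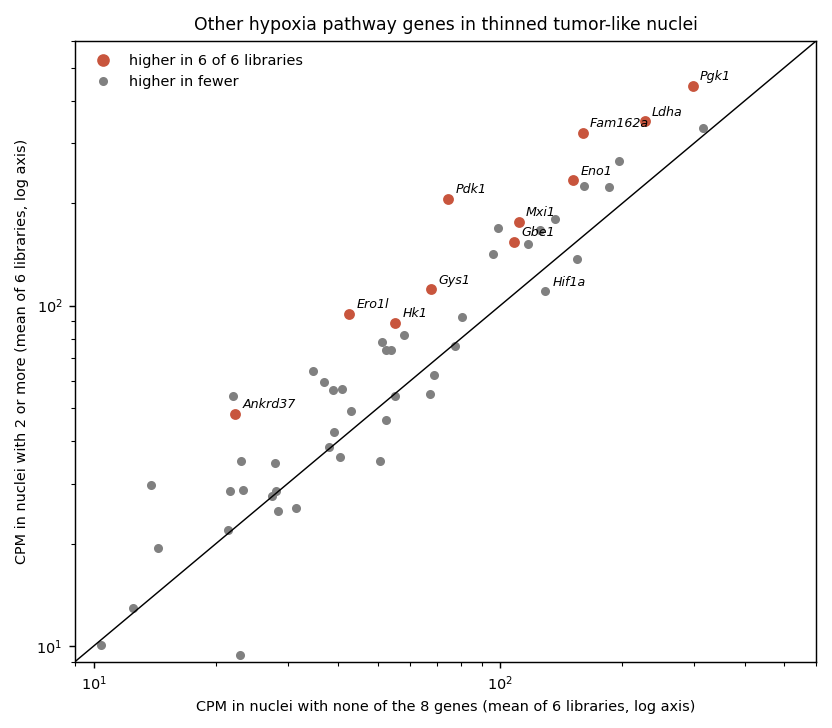
Level of listed pathway genes in CPM on 2 log axes, in thinned tumor-like nuclei with none of the 8 members (horizontal) and with at least 2 (vertical), as means of 6 libraries. Red points were higher in 6 of 6 libraries, the diagonal marks equal levels, and Pdk1, at 206 against 74.6 CPM, lies farthest above it among the red points.

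Likeness to the members was also ranked over 3390 genes that were present in at least 5% of thinned tumor-like nuclei. For each gene, the thinned count on a log scale was correlated with the number of the other members present, within each library, and the 6 values of Pearson's r were averaged. The genes at the top were Fam162a (mean r 0.0951), the pyruvate kinase Pkm (0.0774), Triobp (0.0715), the member Egln1 (0.0688), the lactate dehydrogenase Ldha (0.0616) and the phosphoglycerate kinase Pgk1 (0.0609). Scd2, Eno1, Cd109 and Fndc3a followed, with mean r from 0.0513 to 0.05315, and the 10 genes were positive in 6 of 6 libraries. These correlations across nuclei are weak and serve as a description, with 95% of genes below 0.02315. The points share library and depth, and P4ha1 came next after the leading 10 (0.0481). Of the 18 listed pathway genes that were ranked, 10 lay among the first 30.

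The study's own contrast, KO against CO, was tested on the summed counts of the 3 KO and 3 CO libraries. In tumor-like nuclei, 0 of 13050 genes were called (0%; edgeR), although 871 lay under 0.05 before adjustment, and DESeq2 called 27 (0.152%). In macrophage-like nuclei 0 of 9957 genes were called (0%; edgeR), with 523 at an unadjusted p under 0.05 and 3 (0.0191%) called by DESeq2. Over all nuclei 0 of 13665 genes were called (0%; edgeR), with 667 at an unadjusted p under 0.05 and 12 (0.0662%) called by DESeq2. None of the members was called in any of the 3. The p-values measure the spread between these libraries, which may be technical in part, and the labels do not say which of them received extra washes against free RNA.

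Bnip3 showed the largest difference among the members tested. In tumor-like nuclei it averaged 30.1 ± 12.0 CPM over the CO and 52.5 ± 16.5 CPM over the KO libraries (SD, n = 3), a log2 fold change of 0.87 (SE 0.36, unadjusted p = 0.0462, edgeR adjusted p = 0.593). In macrophage-like nuclei the means were 22.03 ± 8.36 and 44.1 ± 12.2 CPM, a log2 fold change of 0.96 (SE 0.35, unadjusted p = 0.0218, edgeR adjusted p = 0.830). The direction was the same in every alternative fit, from 0.65 to 1.27 in tumor-like and from 0.76 to 1.32 in macrophage-like nuclei. Without KO replicate 1, Bnip3 was called in both classes, at 1.12 (SE 0.31, edgeR adjusted p = 0.0410) and 1.04 (SE 0.34, edgeR adjusted p = 0.0465). In those fits 21% of all genes were called in tumor-like and 17.9% in macrophage-like nuclei, 6.85% and 7.6% as higher in KO.

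None of the other members had an unadjusted p under 0.05 in either class. Among the HIF subunits, Hif1a was at 0.18 (SE 0.20) in tumor-like and 0.24 (SE 0.20) in macrophage-like nuclei, and Epas1 was at -0.13 (SE 0.40) in tumor-like nuclei. The sensor Egln3 was at 0.63 (SE 0.38, unadjusted p = 0.137, edgeR adjusted p = 0.593) in tumor-like nuclei, with means of 7.755 ± 2.81 and 11.55 ± 3.58 CPM, and Egln1 was at -0.12 (SE 0.20). These differences were smaller than 2 standard errors, in either direction. Adm was at -0.61 (SE 0.51), with 11.9 ± 5.59 CPM in CO and 7.48 ± 4.99 CPM in KO. Ndrg1, Car9, P4ha1 and P4ha2 were at 0.04 (SE 0.16), -0.25 (SE 0.51), 0.06 (SE 0.23) and -0.21 (SE 0.41).

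In macrophage-like nuclei, Epas1, Egln3 and Adm fell below the filter on low counts and were not tested. Adm averaged 6.34 ± 2.84 CPM over the CO and 2.84 ± 3.83 CPM over the KO libraries there (SD, n = 3). Of the 7 members tested there, Ndrg1 was at 0.54 (SE 0.32), P4ha2 at 0.60 (SE 0.47), Car9 at 0.05 (SE 0.39), Egln1 at -0.08 (SE 0.22) and P4ha1 at -0.10 (SE 0.20). Counting genes whose 3 CO and 3 KO values did not overlap gave none of the 10 members in tumor-like nuclei, against 13% of all genes tested. In macrophage-like nuclei 2 of 7 members, Hif1a and Bnip3, had every KO library above every CO library, and neither was called. Of all genes tested there, 5.77% were separate in that direction and 11.4% in either direction. For Hif1a the margin was small, with KO replicate 1 at 126.6 CPM and CO replicate 3 at 126.3 CPM. The share of tumor markers in macrophage-like nuclei was also higher in each KO library, and its part in these values was not tested.

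Over all kept nuclei, where fewer cells of a type and less RNA per cell cannot be told apart, Bnip3 was at 0.88 (SE 0.37, unadjusted p = 0.0488, edgeR adjusted p = 0.670) and none of the members had separate groups, against 11.3% of all genes. Its levels were 43.0, 24.5 and 20.7 CPM in CO and 34.2, 63.9 and 57.1 CPM in KO libraries. Of the listed pathway genes, 0 of 68, 0 of 56 and 0 of 70 were called in tumor-like, macrophage-like and all nuclei, in fits that called no gene at all (edgeR). Their median log2 fold changes were -0.08, 0.03 and -0.03 against -0.03, 0.01 and -0.02 over all genes. The lists departed most from this in macrophage-like nuclei, where the 7 angiogenic and secreted targets tested had a median of 0.71, with 5 above 0, and the 11 HIF partners and regulators had a median of -0.19.

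**Figure D5:**
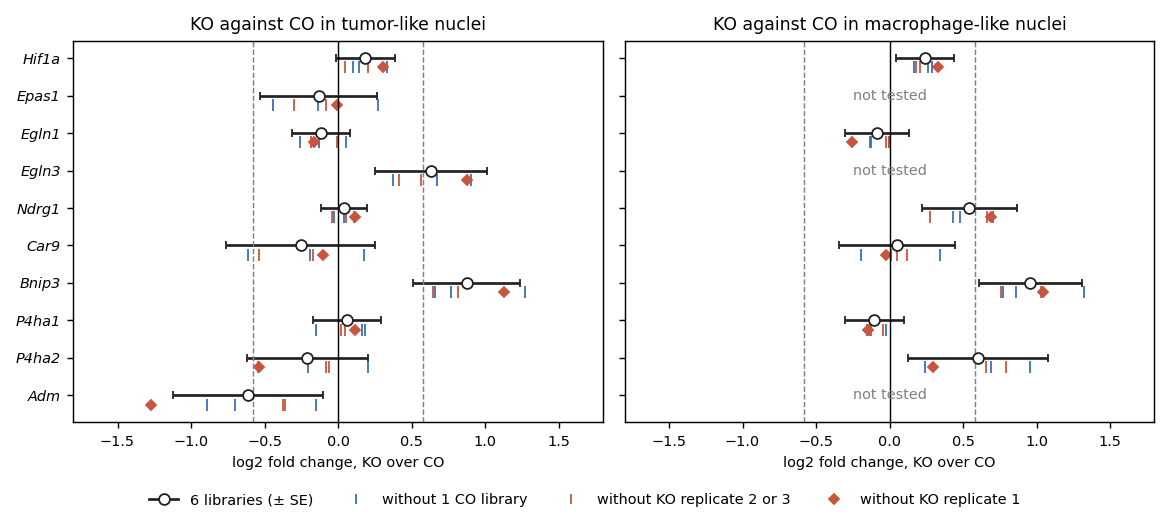
Log2 fold change of KO over CO for each member in tumor-like and macrophage-like nuclei, with its standard error; small marks are fits that leave out 1 library, and the diamond is the fit without KO replicate 1. Bnip3 lies above 0 in every fit of both classes, and Epas1, Egln3 and Adm were not tested in macrophage-like nuclei.

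Whether KO changed the members differently in the 2 classes was tested as a term of its own. Of 12899 genes, 1 was called (0.00775%), 852 lay under 0.05 before adjustment, DESeq2 called 2 (0.0111%), and no member was called. P4ha2 had the smallest p of the members, with a difference of -0.88 between the tumor-like and the macrophage-like log2 fold change (SE 0.28, unadjusted p = 0.00703, edgeR adjusted p = 0.609). Ndrg1 followed at -0.62 (SE 0.28, unadjusted p = 0.0420, edgeR adjusted p = 0.751). The median over all genes was -0.08.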

How the data were processed

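Nuclei of 6 frozen tumor samples were profiled with 10x 3′ chemistry. The deposited matrices hold whole UMI counts per gene and nucleus, which the authors made with Cell Ranger (version 3.0.2 in the submitters' notes, 3.1.0 in the file header) on GRCm38. The study describes removal of free RNA, but the deposited counts were whole numbers and were used as they stood. Barcodes with 100 to 7500 detected genes and under 20% mitochondrial UMIs were kept, and the 0.8% per 1000 barcodes with the highest Scrublet scores (scanpy 1.11.5) were removed as doublets, 500 in all (Scrublet's own threshold marked 11).

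Nuclei were classed by UMIs on marker genes, with at least 3 marker UMIs. Tumor-like nuclei had at least 60 tumor-marker UMIs and under 20 macrophage-marker UMIs per 10000. Macrophage-like nuclei had at least 40 macrophage-marker and under 60 tumor-marker UMIs per 10000. Counts were summed per library and class and tested in edgeR 4.0.16 (R 4.3.3; TMM, filterByExpr, quasi-likelihood F-test). KO was compared with CO within each class and over all nuclei, and the class contrasts had the library as a block. Standard errors were derived from each gene's fold change and F statistic. Intervals and zero-count limits cover counting error only. The scripts were tested on simulated counts.

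Members, marker lists and pathway lists were chosen with earlier results of these data known. All members were named, and of the pathway genes the 5 largest called rises and falls, and of all genes the 10 that went most with the number of members present. The genes higher in all libraries by number of members were named after their values were seen. One gene that this rule names is not reported here. Positions are from GENCODE on GRCm38. The alternatives were DESeq2 1.42.0, other size factors, no low-count filter, stricter marker and nuclei cuts, no doublet removal, a replicate block, other thinning depths and leaving out each library.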

Additional observations from a re-analysis of the deposited data

How the results depend on the processing

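Of 579 values of the members under the alternatives, 537 kept their direction and side of the threshold. DESeq2 called 27, 3 and 12 genes for KO against CO in tumor-like, macrophage-like and all nuclei and 2 for the difference between classes, against 0, 0, 0 and 1. Without a low-count filter these became 2 in macrophage-like nuclei and 94 for the difference, which was 6 with stricter marker cuts and 0 with other size factors (RLE) or stricter nuclei filters. Leaving out 1 library gave 0 to 2772 calls in tumor-like and 0 to 1762 in macrophage-like nuclei (the highest without KO replicate 1), 0 over all nuclei, and 0 to 193 for the difference. The share of nuclei with at least 2 members was 2.49% at 500 UMIs, 21.9% at 2000 and 55.5% unthinned, and its ratio to expectation was 1.07, 1.02 and 0.864. Without thinning, depth differs between nuclei and detection is high, so the unthinned ratio cannot be compared with the others.

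In the class contrast, Epas1 became called with stricter marker cuts (1.21), Adm lost its call with stricter nuclei filters (0.85, edgeR adjusted p = 0.0599), and Hif1a turned to 0.0298 without a filter. Signs also turned for KO against CO of Ndrg1 in tumor-like (-0.0589) and P4ha2 in all nuclei (0.15) with stricter nuclei filters. For the difference between classes they turned for Hif1a (0.0284) and Egln1 (0.0909) without a filter, Egln1 with DESeq2 (0.0338) and RLE (0.0315), Epas1 (0.0012) and Adm (-0.33) with stricter markers, and Car9 (0.0369) and Adm (-0.21) with stricter nuclei filters. The causes were not tested.

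Leaving out 1 library turned uncalled values within these ranges. In tumor-like nuclei KO against CO ran from -0.44 to 0.27 for Epas1, -0.26 to 0.0555 for Egln1, -0.0444 to 0.11 for Ndrg1, -0.62 to 0.18 for Car9, -0.15 to 0.18 for P4ha1 and -0.55 to 0.20 for P4ha2. In macrophage-like nuclei Car9 ran from -0.19 to 0.34. Over all nuclei the ranges were -0.0342 to 0.68 for Epas1, -0.26 to 0.0352 for Egln1, -0.0234 to 0.18 for Ndrg1, -0.41 to 0.17 for Car9, -0.15 to 0.16 for P4ha1 and -0.52 to 0.26 for P4ha2. The class contrast ran from -0.0753 to 0.31 for Epas1 and -0.0428 to 0.0934 for P4ha1. The difference between classes ran from -0.74 to 0.0286 for Epas1, -0.17 to 0.0845 for Egln1, -0.0131 to 0.97 for Egln3, -0.68 to 0.0368 for Car9 and -0.0587 to 0.28 for P4ha1.

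Whether the replicate numbers pair the libraries could not be settled from groups of 3. Same-numbered CO and KO libraries deviated from their groups with correlations of 0.51, -0.24 and 0.39 in tumor-like nuclei. Those with different numbers ran from -0.54 to 0.41. A replicate block gave 0 calls in tumor-like, macrophage-like and all nuclei (edgeR) and turned Car9 in macrophage-like nuclei to -0.0541. With the block, 1872, 747 and 1083 genes had an unadjusted p under 0.05 (edgeR), against 871, 523 and 667 without it. Depth limits the macrophage-like values of Epas1, Egln3, Adm and Car9, which rest on 43, 28, 35 and 78 UMIs.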

Other observations

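The small classes showed other levels of several members. In endothelial-like nuclei, Ndrg1 stood at 177.6 CPM (exact 95% Poisson interval 129 to 238, 44 UMIs), Egln3 at 56.5 CPM (30.9 to 94.8, 14 UMIs) and Adm at 44.4 CPM (22.2 to 79.4, 11 UMIs), each above the tumor-like mean of the same gene. P4ha1 stood at 157 CPM (112 to 215) there and at 190 CPM (158 to 226) in T/NK-like nuclei, below both main classes. Hif1a stood at 230.1 CPM (174 to 298) in endothelial-like and 207 CPM (173 to 244) in T/NK-like nuclei. The 102 endothelial-like and 490 T/NK-like nuclei were summed over libraries, the intervals cover counting error only, and no test was made. Summed tumor markers stood at 7426 CPM in endothelial-like and 3706 CPM in T/NK-like nuclei, against 17457 CPM in tumor-like nuclei. Mecom alone stood at 5186 CPM in endothelial-like and 5483 CPM in tumor-like nuclei. Summed macrophage markers stood at 3750 CPM in T/NK-like nuclei. The part of RNA from other classes in these levels was not tested. The T/NK-like level of Epas1, 39.5 CPM on 26 UMIs, drew 17 of those UMIs from KO replicate 1. Without that library it was 15.9 CPM (7.26 to 30.1). The endothelial-like UMIs of Egln3 came from KO replicates 1 (4) and 3 (10) alone, and without KO replicate 3 the level was 25.1 CPM (6.83 to 64.2). Of the 11 endothelial-like UMIs of Adm, 5 came from KO replicate 1, and without that library the level was 30.75 CPM (11.3 to 66.9). Leaving out these libraries was chosen after seeing the data.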
